A study of Oryctolagus cuniculus with 6 samples.

Results

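The genes described here are 10 survival factors of the retina and their receptors, namely the ligands FGF2, CNTF, LIF and BDNF and the receptors FGFR1, FGFR2, FGFR3, CNTFR, NTRK2 and GFRA1. They were found by their symbols in the gene tables of a rabbit RNA sequencing study, and all 10 were present among 28788 genes. The study compared 3 normal retina samples (normal replicates 1 to 3) with 3 retina samples from a model of proliferative vitreoretinopathy, or PVR (PVR replicates 1 to 3), in which cells proliferate and scar tissue forms on the retina. In the model, adult rabbits had the sclera punctured, part of the vitreous body withdrawn and platelet-rich plasma injected into the vitreous cavity. The strain, the time between injection and collection, and the treatment of the normal eyes, if any, are not named in the sources used here. The labels do not say whether the 3 samples of a group came from separate animals, so the p-values measure the spread between these samples, which may be technical in part.

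Neurons and photoreceptors of an injured retina can be kept alive for a time by a small set of secreted proteins, many of them made by or acting through Müller glia, the radial glial cells that span the retina. FGF2 signals through receptor tyrosine kinases of the FGFR family. CNTF and LIF belong to the interleukin-6 family and share the signalling subunits gp130 (IL6ST) and LIFR, and CNTF needs in addition the binding subunit CNTFR. BDNF signals through the receptor kinase NTRK2, also called TrkB, and GFRA1 binds GDNF and presents it to the receptor kinase RET.

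The samples held between 31904593 and 43035080 counted reads. All 10 rod photoreceptor markers looked for were detected, with summed levels of 42850 to 50468 CPM (counts scaled to a common library size with TMM factors) in normal retina and 30432 to 41827 CPM in the PVR samples. Normal replicate 2 stood apart from the other samples, since 11 lens genes took 3.13% of its counts, against 0.00193% and 0.00161% in normal replicates 1 and 3 and 0.0287% to 0.0318% in the PVR samples. Genes of microglia and macrophages were fitted higher in PVR in 12 of 12 cases, and their summed level was between 39.0 and 81.3 CPM in normal retina and between 101 and 125 CPM in the PVR samples, with none of them at 0. Oligodendrocyte genes were fitted lower in 9 of 9 tested cases, with a median log2 fold change of -2.56. Their summed level varied widely in normal retina, at 221, 548 and 1196 CPM in replicates 1 to 3, against 140, 128 and 150 CPM in PVR replicates 1 to 3. The medians of the other marker lists were -0.10 for Müller glia, -0.08 for astrocytes, -0.32 for rods, -0.35 for cones, -0.02 for bipolar cells, -0.05 for amacrine and horizontal cells, -0.21 for ganglion cells, -1.29 for endothelium, -0.12 for pericytes, -0.52 for pigment epithelium, -5.11 for lens and -0.27 for blood and platelets. The lens value comes from normal replicate 2, since the summed lens level was 19.7 and 16.2 CPM in normal replicates 1 and 3, 32866 CPM in normal replicate 2 and 276 to 311 CPM in PVR. The summed endothelial level was higher in each PVR sample, at 705 to 727 CPM, than in each normal sample, at 611 to 664 CPM, which is opposite in direction to the median over its genes. The same held for astrocytes, at 1269 to 1294 CPM in PVR against 992 to 1175 CPM in normal retina. In whole tissue, fewer cells of a type and less RNA per cell cannot be told apart, and the part of these shifts in the values below was not tested.

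None of the 10 genes passed both thresholds of the study, which asked for an absolute log2 fold change above 1 together with an adjusted p below 0.05. Counts were tested by edgeR's quasi-likelihood method, adjusted over the 18697 genes tested, of which 1.01% passed both thresholds and 1.7% the adjusted p alone. At an unadjusted p under 0.05, 4 of the 10 genes passed (LIF, NTRK2, FGFR3 and FGFR2), against 21.2% of all genes tested. LIF reached the test only through the PVR samples, since 0 of 3 normal samples reached the minimum of the filter on low counts. Its place in this count and in those below is limited by this. With DESeq2, the tool that the study used, LIF and FGFR3 passed both thresholds, against 3.91% of all genes, and NTRK2 passed the adjusted p alone, against 9.65%. With limma-voom 0 of the 10 genes passed, against 0.69% of all genes for both thresholds and 1.15% for the adjusted p alone. Without normal replicate 2, edgeR called 0 of the 10 genes, against 0.333% and 0.396% of 19198 genes, while 3 of the 10 had an unadjusted p under 0.05, against 16.0% of all genes in that fit. The 3 PVR samples did not overlap the 3 normal samples for LIF, NTRK2 and FGFR3, that is for 3 of 10 genes, against 28.0% of all genes tested, so the share of separated genes was close to the background. LIF was the gene with PVR above, as were 13.4% of all genes, and NTRK2 and FGFR3 were those with PVR below, as were 14.6%. The fitted values were positive for 5 of the genes and negative for 5, with a median log2 fold change of 0.02, beside -0.01 over all genes tested.

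**Figure D1:**
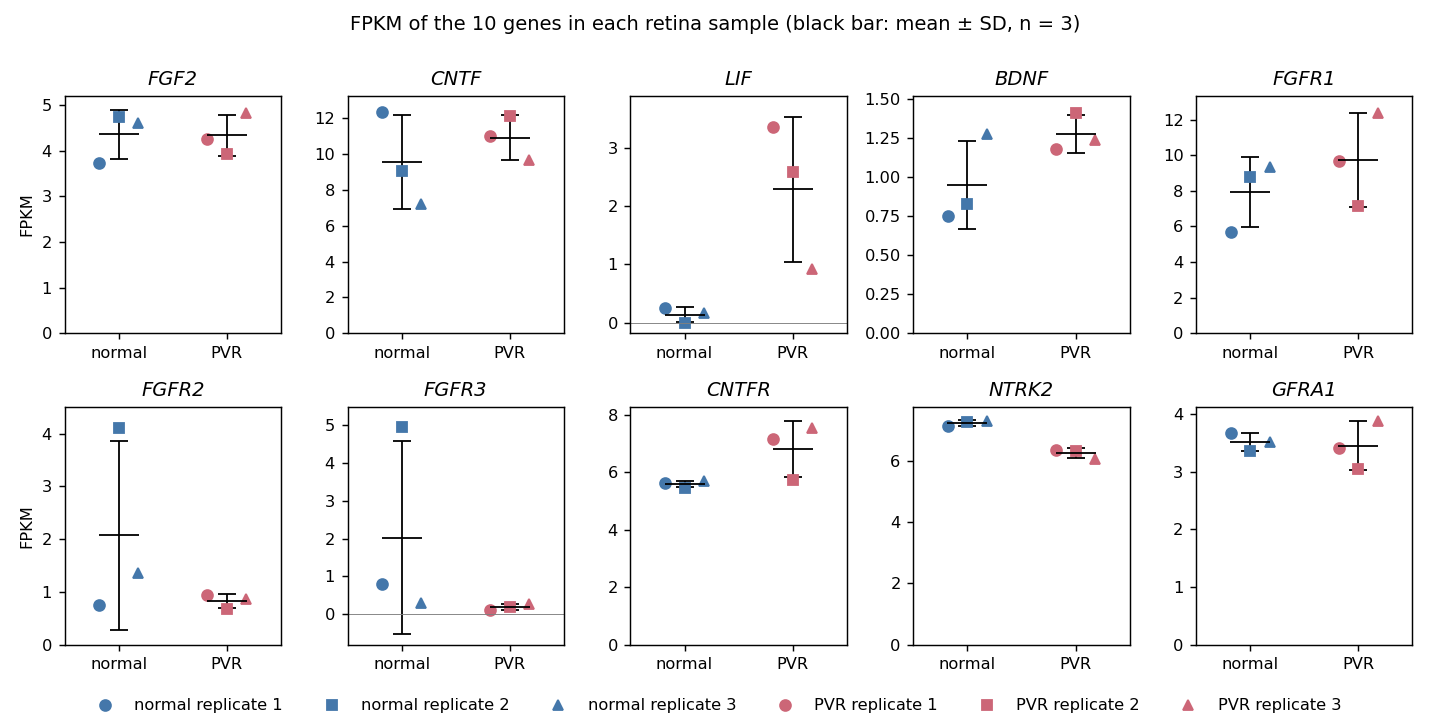
FPKM (vertical axes, each from about 0) of the 10 genes in each sample, with normal samples in blue and PVR samples in red, symbols for replicate numbers, and the mean ± SD (n = 3) in black. LIF lies between 0 and 0.253 in normal retina and between 0.916 and 3.35 in PVR, NTRK2 is separated by a small step, and the means of FGFR2 and FGFR3 in normal retina are pulled up by normal replicate 2.

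The plot of FPKM by sample shows how the levels were ordered. FPKM is the read count divided by gene length and by the counted reads of the sample, so it allows a comparison between genes. In normal retina the order of mean FPKM was CNTF, FGFR1, NTRK2, CNTFR, FGF2, GFRA1, FGFR2, FGFR3, BDNF and LIF. The ranges of neighbours did not overlap at 4 of the 9 steps, from NTRK2 to CNTFR, from CNTFR to FGF2, from FGF2 to GFRA1 and from BDNF to LIF. In PVR the order was CNTF, FGFR1, CNTFR, NTRK2, FGF2, GFRA1, LIF, BDNF, FGFR2 and FGFR3. LIF thus stood in position 7 in PVR, where its range overlapped those of GFRA1 and BDNF, and in position 10 in normal retina. The ranges were apart from NTRK2 to FGF2, from FGF2 to GFRA1, from BDNF to FGFR2 and from FGFR2 to FGFR3. The position of CNTF depends on its gene model, which is 600 bases long in these files, whereas that of NTRK2 is 15354 bases long. By CPM, which is not divided by length, CNTF stood in position 8 and NTRK2 in position 1 in normal retina.

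FGF2, a heparin-binding growth factor that is known to protect photoreceptors, had overlapping groups and a fitted value near 0. Its FPKM was 3.74, 4.73 and 4.61 in normal replicates 1 to 3 and 4.27, 3.92 and 4.82 in PVR replicates 1 to 3. The lowest and the highest of the 6 values were thus in different groups. The mean was 4.36 ± 0.543 (SD, n = 3) in normal retina and 4.34 ± 0.453 (SD, n = 3) in PVR, and the log2 fold change was -0.08 with a 95% interval from -0.41 to 0.25 (adjusted p = 0.776, edgeR). The sign of this value turned without normal replicate 2, where the log2 fold change was 0.01. In another assembly of the rabbit genome (mOryCun1.1, used for gene names and neighbours only), the FGF2 gene overlaps NUDT6, and the strand setting of the counting is not named in the sources used here, so reads of both genes may not be fully separated. NUDT6 had 206 to 319 counts per normal sample and 233 to 296 per PVR sample (log2 fold change 0.12, adjusted p = 0.783, edgeR).

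Among the FGF ligands as a whole, FGF2 was a small part of the transcript pool. The 18 FGF genes found in the files summed to 76.9 ± 2.87 FPKM (SD, n = 3) in normal retina and 74.1 ± 5.10 FPKM (SD, n = 3) in PVR. FGF2 made up 4.78%, 6.43% and 5.84% of this sum in normal replicates 1 to 3 and 5.82%, 5.65% and 6.06% in PVR replicates 1 to 3. The groups overlapped, and the mean differed by 0.16 percentage points (two-sided exact permutation test, p = 0.9). Without FGF11, FGF12, FGF13 and FGF14, which stay inside the cell, FGF2 made up 14.8 ± 1.88% (SD, n = 3) in normal retina and 13.3 ± 0.852% (SD, n = 3) in PVR, a difference in the other direction (exact permutation test, p = 0.3). FGF9, a secreted FGF, was the most abundant of the 14 remaining ligands. Its share was 51.4 ± 1.31% (SD, n = 3) in normal retina and 57.8 ± 5.42% (SD, n = 3) in PVR. The highest normal sample was at 52.5% and the lowest PVR sample at 53.1% (exact permutation test, p = 0.1, the minimum for groups of 3). The mean share of FGF1 in the same sum was 26.5% in normal retina and 20.5% in PVR, and shares of a sum are not independent.

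CNTF, the ciliary neurotrophic factor, had overlapping groups. Its counts were 289, 222 and 173 in normal replicates 1 to 3 and 211, 235 and 249 in PVR replicates 1 to 3, and its mean was 9.54 ± 2.61 FPKM (SD, n = 3) against 10.9 ± 1.23 FPKM (SD, n = 3). Both the highest and the lowest of the 6 values were those of normal samples. The log2 fold change was 0.12 with a 95% interval from -0.44 to 0.68 (adjusted p = 0.794, edgeR), and without normal replicate 3 it was -0.05. In the assembly mOryCun1.1 CNTF overlaps ZFP91, which had 8964 to 12813 counts per sample here, so the count of CNTF is uncertain.

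LIF, the leukaemia inhibitory factor, is known to be made by Müller glia when photoreceptors are injured, and it had the largest fold change of the 10 genes. Its counts were 6, 0 and 4 in normal replicates 1 to 3 and 65, 51 and 24 in PVR replicates 1 to 3. The groups were thus separated, but the PVR samples differed among themselves, and replicate 3 had the lowest count in the deepest library. In FPKM this was 0.139 ± 0.128 (SD, n = 3) in normal retina and 2.28 ± 1.24 (SD, n = 3) in PVR. With the counts of each group added up, 140 in PVR and 10 in normal retina, the ratio per counted read was 15.6, with an exact 95% interval from 8.26 to 33.3 that covers counting error only. Its fitted log2 fold change was 3.92, with a 95% interval from 1.80 to 6.04 that includes the spread between samples (standard error 0.91, unadjusted p = 0.00298, adjusted p = 0.0792, edgeR). With DESeq2 it was 3.98 (adjusted p = 0.000738). Over all alternatives tried, the adjusted p lay between 0.000738 and 0.301, the highest being that of edgeR without PVR replicate 1. Without normal replicate 2, the library with lens genes, edgeR gave 3.36 (adjusted p = 0.161). LIF passed the filter on low counts only through the PVR samples, since 0 of 3 normal samples reached the minimum of the filter. The gene model of LIF is 609 bases long in these files.

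Related cytokines of the same family also had low counts. CTF1 and CLCF1, which like OSM, IL6 and IL11 were named after their values were seen, passed the filter. CTF1, cardiotrophin 1, had 9, 22 and 15 counts in normal replicates 1 to 3 and 20, 18 and 35 in PVR replicates 1 to 3 (log2 fold change 0.73, adjusted p = 0.418, edgeR). CLCF1, a cytokine that signals through CNTFR, had 14, 13 and 41 counts in normal replicates 1 to 3 and 31, 54 and 21 in PVR replicates 1 to 3 (log2 fold change 0.80, adjusted p = 0.486, edgeR). Both overlapped between the groups and had more counts than LIF in each normal sample. OSM, oncostatin M, had 1, 0 and 0 counts in normal retina and 13, 7 and 3 in the PVR samples, and was too low to be tested. IL6 had 3, 0 and 5 counts in normal retina and 2, 1 and 2 in PVR, and IL11 had none in normal retina and 0, 5 and 4 in PVR. For LIF relative to CNTF, the ratio of FPKM was 0.0205, 0 and 0.0228 in normal retina and 0.304, 0.214 and 0.0950 in PVR. LIF was thus below CNTF in every sample of both groups, and this comparison is between 2 gene models of nearly equal length. The count of CNTF is uncertain, however, because CNTF overlaps ZFP91 in the assembly mOryCun1.1.

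BDNF, the brain-derived neurotrophic factor, was fitted slightly higher in PVR without passing the test. Its FPKM was 0.749, 0.832 and 1.27 in normal replicates 1 to 3 and 1.18, 1.41 and 1.24 in PVR replicates 1 to 3. The groups overlapped through normal replicate 3. Between the groups the log2 fold change was 0.36 with a 95% interval from -0.24 to 0.96 (adjusted p = 0.449, edgeR), and it was 0.61 (adjusted p = 0.188, edgeR) without normal replicate 3. A long noncoding RNA that overlaps BDNF in the assembly mOryCun1.1, LOC103351120, had 257, 271 and 338 counts in normal retina and 371, 535 and 396 in PVR, more than the 104 to 190 counts of BDNF itself. Its log2 fold change was 0.71 (adjusted p = 0.152, edgeR). Where both genes overlap, their reads cannot be told apart without a strand setting.

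**Figure D2:**
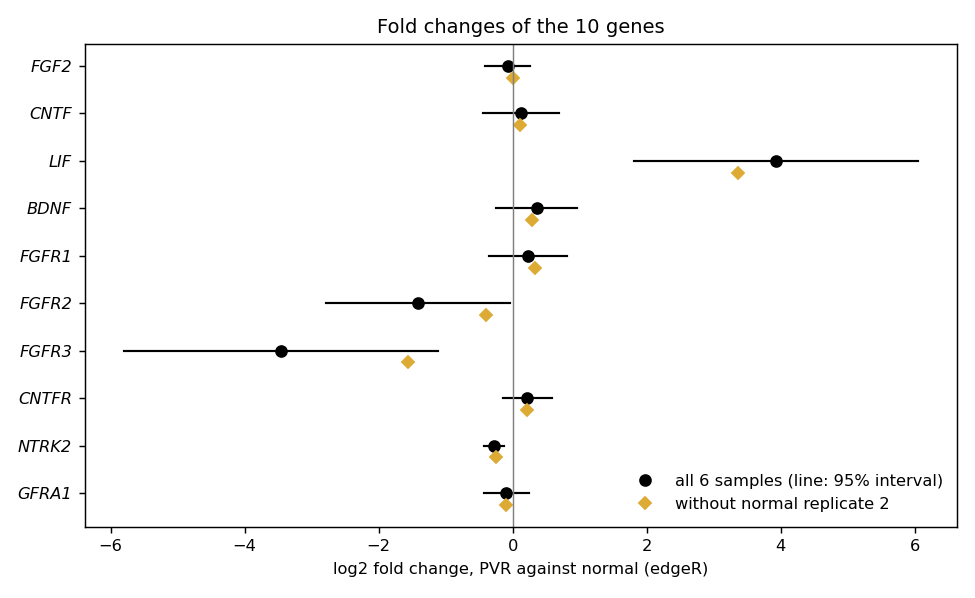
Log2 fold change of PVR against normal (horizontal axis, edgeR) for the 10 genes, with the 95% interval for all 6 samples in black and the value without normal replicate 2 in yellow. LIF lies at 3.92, the values of FGFR2 and FGFR3 move from -1.41 to -0.40 and from -3.45 to -1.57 without normal replicate 2, and the interval of NTRK2 is the narrowest.

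The FGF receptors are tyrosine kinases that differ in the FGFs they bind, and FGFR1 was the main one in all 6 samples. FGFR1 had an FPKM of 5.69, 8.80 and 9.33 in normal replicates 1 to 3 and of 9.70, 7.14 and 12.4 in PVR replicates 1 to 3. The groups overlapped, and the lowest sample was normal and the highest was PVR. In the fit the log2 fold change was 0.23 with a 95% interval from -0.36 to 0.82 (adjusted p = 0.624, edgeR). With a sample left out it lay between 0.0022, without PVR replicate 3, and 0.42, without PVR replicate 2, and it was 0.041 without normal replicate 1, 0.33 without normal replicate 2 and 0.35 without normal replicate 3. LETM2, which overlaps FGFR1 in the assembly mOryCun1.1, had 65 to 114 counts per sample. The spread within the groups was wide, with a coefficient of variation of 24.7% in normal retina and 28.3% in PVR, where counting error alone gives 2.89% and 2.72%.

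FGFR2 and FGFR3 had by far their highest values in normal replicate 2. FGFR2 had 140, 799 and 259 counts in normal replicates 1 to 3 and 143, 103 and 178 in PVR replicates 1 to 3. FGFR3 had 130, 828 and 51 counts in normal retina and 17, 25 and 47 in PVR. In CPM, normal replicate 2 was 4.05 times the mean of normal replicates 1 and 3 for FGFR2 and 9.08 times for FGFR3, and it was the sample in which lens genes took 3.13% of the counts. Lens fibre cells are known to depend on FGF receptors, but the part of lens RNA in these counts was not tested. With all samples, the log2 fold change was -1.41 (standard error 0.59, adjusted p = 0.225, edgeR) for FGFR2 and -3.45 (95% interval from -5.79 to -1.11, adjusted p = 0.121, edgeR) for FGFR3. Without normal replicate 2 these values were -0.40 (adjusted p = 0.582, edgeR) and -1.57 (adjusted p = 0.261, edgeR). The FGFR2 values of PVR lay around those of normal replicate 1, whereas FGFR3 was lower in each PVR sample, at 0.520, 0.744 and 1.08 CPM, than in normal replicates 1 and 3, at 3.41 and 1.28 CPM. The distance between the lowest normal and the highest PVR sample was small. DESeq2 gave FGFR3 an adjusted p of 0.0248 with all samples and of 0.151 without normal replicate 2, and it was not run without any other sample. In edgeR the adjusted p was 0.368 without PVR replicate 1 and 0.275 without PVR replicate 2. In edgeR, FGFR3 had an adjusted p of 0.0483 without normal replicate 3, where the log2 fold change was -3.96.

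**Figure D3:**
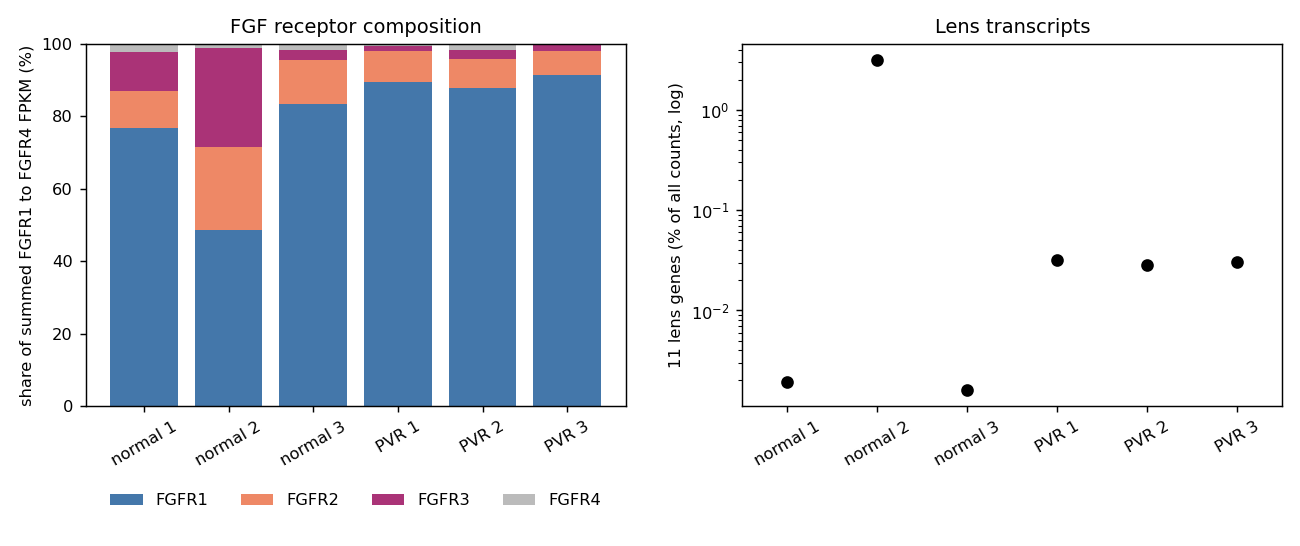
Left, share of FGFR1, FGFR2, FGFR3 and FGFR4 in their summed FPKM (vertical axis, percent) in each of the 6 samples; right, counts on 11 lens genes as a percentage of all counts on a log axis. FGFR1 makes up 87.8% to 91.6% in the PVR samples and 48.8% to 83.5% in normal retina, with the lowest share in normal replicate 2, which also has the highest lens share of 3.13%.

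The composition of the FGF receptor pool is shown in the plot of receptor shares. FGFR1 made up 76.7%, 48.8% and 83.5% of the summed FPKM of FGFR1 to FGFR4 in normal replicates 1 to 3 and 89.5%, 87.8% and 91.6% in PVR replicates 1 to 3. No normal sample reached the lowest PVR sample (exact permutation of the mean share, two-sided p = 0.1, which is the minimum for groups of 3). The mean was 69.7 ± 18.4% (SD, n = 3) in normal retina and 89.6 ± 1.91% (SD, n = 3) in PVR, a difference of 19.9 percentage points. Without normal replicate 2 the difference was 9.49 percentage points. The summed level of the 4 receptors overlapped between the groups, with 12.2 ± 5.40 FPKM (SD, n = 3) in normal retina and 10.8 ± 2.69 FPKM (SD, n = 3) in PVR. FGFR4 was the least abundant in each sample, with shares between 0.0460% and 2.13%.

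CNTFR, the subunit that makes a cell responsive to CNTF, was even among the normal samples. Its FPKM was 5.64, 5.46 and 5.69 in normal replicates 1 to 3 and 7.17, 5.72 and 7.55 in PVR replicates 1 to 3. The PVR samples were all higher in FPKM, but on the scale of CPM with TMM factors PVR replicate 2, at 11.8 CPM, was below the normal samples at 12.2 to 12.3 CPM. The coefficient of variation was 0.555% in normal retina, less than the 4.57% that counting error gives, and 15.4% in PVR. The log2 fold change was 0.22 with a 95% interval from -0.15 to 0.58 (adjusted p = 0.451, edgeR).

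NTRK2 had a small spread within both groups, a small fold change and the smallest edgeR p of the 10 genes, whereas with DESeq2 LIF had a smaller p. Its CPM was 112, 117 and 113 in normal replicates 1 to 3 and 95.4, 93.8 and 92.5 in PVR replicates 1 to 3. The groups did not overlap. The coefficient of variation was 2.48% in normal retina and 1.57% in PVR, where counting error alone gives 1.71% in PVR. Its fitted log2 fold change was -0.28 (standard error 0.06, 95% interval from -0.43 to -0.13), a ratio of means of 0.822, with an edgeR p of 0.00276 and an adjusted p of 0.0771. The adjusted p lay between 0.0173, with DESeq2, and 0.299, without PVR replicate 1 in edgeR, over the alternatives tried. Without normal replicate 2 the values were -0.26 and 0.229 in edgeR and -0.26 and 0.0618 in DESeq2. In FPKM the step was from 7.25 ± 0.0909 (SD, n = 3) to 6.26 ± 0.163 (SD, n = 3). Relative to its ligand, the ratio of NTRK2 to BDNF in FPKM was 9.55, 8.76 and 5.75 in normal retina and 5.40, 4.49 and 4.90 in PVR, so that each PVR sample was below each normal sample. The full-length and the truncated receptor cannot be distinguished by a count per gene. LOC127487615, a long noncoding RNA that overlaps NTRK2 in the assembly mOryCun1.1, had 121 to 269 counts per sample (log2 fold change -0.25, adjusted p = 0.617, edgeR).

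The genes whose profile over the 6 samples was most like that of NTRK2 were BRPF3, ANKIB1, SBF1, CORO2B and SKIC3. They were chosen among 5971 genes of similar level by the root mean square difference of log2 CPM, centred on the mean of each gene, and this difference was between 0.0235 and 0.0335. Their log2 fold changes lay between -0.33 and -0.24, and their adjusted p between 0.0634 and 0.135 (edgeR). Fold changes close to that of NTRK2 follow from this choice, which used the same 6 samples. In the other settings, CORO2B had an adjusted p under 0.05 in 2 and ANKIB1 in 1.

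GFRA1, the co-receptor of GDNF, had overlapping groups. Its FPKM was 3.67, 3.36 and 3.51 in normal replicates 1 to 3 and 3.42, 3.04 and 3.88 in PVR replicates 1 to 3. The PVR samples spanned the whole range of the normal ones. Between the groups the log2 fold change was -0.10 with a 95% interval from -0.43 to 0.24 (adjusted p = 0.727, edgeR). It was -0.0031 without PVR replicate 2 and -0.21 without PVR replicate 3. GDNF itself was not tested because its counts were too low, at 0, 33 and 6 in normal replicates 1 to 3 and 1, 4 and 7 in PVR replicates 1 to 3.

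**Figure D4:**
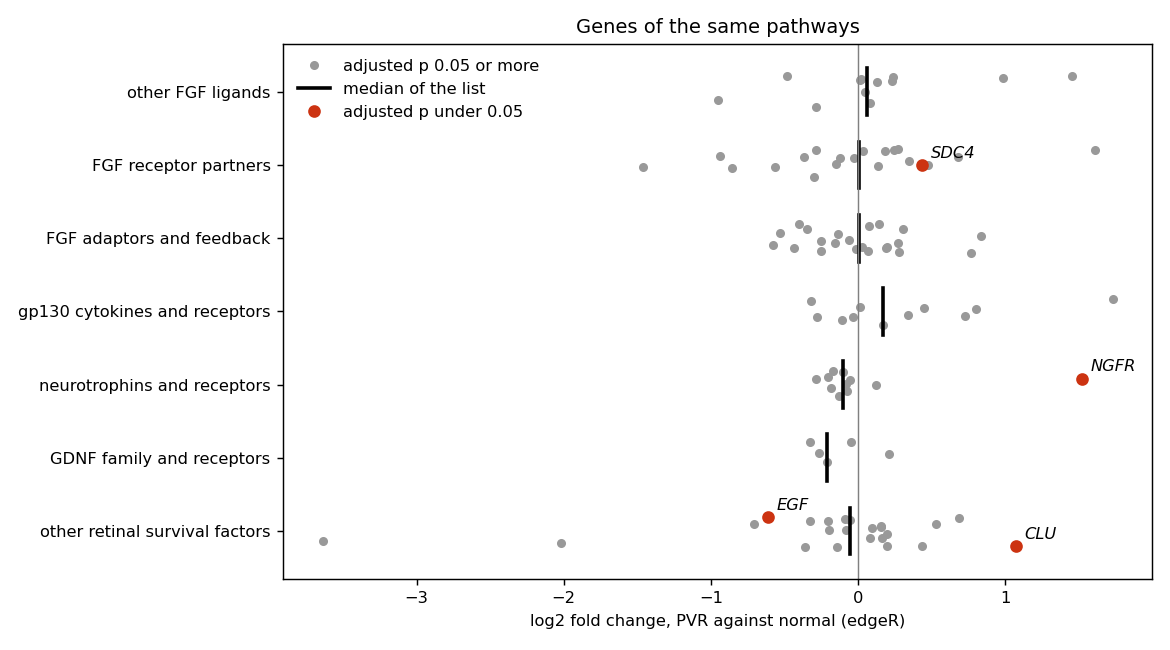
Log2 fold change of PVR against normal (horizontal axis, edgeR) of the 104 tested genes in 7 lists of the same pathways, with genes past an adjusted p of 0.05 in red and named, and the median of each list as a black bar. The medians lie between -0.21 and 0.17, and SDC4, NGFR and CLU are the red points to the right and EGF the one to the left.

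The wider pathways of these factors were described with 7 lists of 137 genes, of which 126 were in the files and 104 were tested. Past an adjusted p of 0.05 with any fold change, 3 genes were higher in PVR (SDC4, NGFR and CLU), where 1.09% of all genes were, and 1 gene was lower (EGF), where 0.615% of all genes were. NGFR and CLU, 2 of the 104 genes, were also past a log2 fold change of 1, where 1.01% of all genes tested passed both thresholds in either direction. The median log2 fold change of the 104 genes was -0.02. The plot of the 7 lists shows that most genes lay near 0.

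NGFR, the low-affinity neurotrophin receptor p75, rose in PVR. Its counts were 100, 177 and 158 in normal replicates 1 to 3 and 318, 349 and 514 in PVR replicates 1 to 3, or 1.10 ± 0.283 FPKM (SD, n = 3) against 3.32 ± 0.303 FPKM (SD, n = 3). All PVR samples were above all normal ones. In the fit the log2 fold change was 1.52 (standard error 0.24, adjusted p = 0.0342, edgeR). The call was lost with the replicate number as a block (log2 fold change 1.55, adjusted p = 0.0662, edgeR) and with a sample left out for normal replicate 1 (adjusted p = 0.0657), normal replicate 2 (0.0699), PVR replicate 1 (0.187) and PVR replicate 2 (0.0820), all from edgeR, while the log2 fold change lay between 1.33 and 1.70. NTRK3, NTF3, SORT1 and the other tested genes of the neurotrophin list, 10 of 11, did not pass an adjusted p of 0.05 in edgeR. Over all genes tested, 1.7% passed it. SORT1, a co-receptor of NGFR for proneurotrophins, had a log2 fold change of -0.19 (adjusted p = 0.321, edgeR), and KIDINS220, a scaffold of neurotrophin receptors, had -0.17 (adjusted p = 0.383, edgeR).

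CLU, the chaperone clusterin, rose in PVR from 401, 426 and 449 FPKM to 967, 1026 and 822 FPKM. The groups were far apart. Its log2 fold change was 1.07 (standard error 0.10, adjusted p = 0.00733, edgeR), and without PVR replicate 1 the adjusted p was 0.0949. EGF, the epidermal growth factor, fell from 12.7, 13.3 and 12.5 FPKM in normal retina to 8.69, 8.25 and 9.47 FPKM in PVR. The log2 fold change of EGF was -0.61 (standard error 0.09, adjusted p = 0.0300, edgeR), with an adjusted p of 0.0969 without normal replicate 1, 0.111 without normal replicate 2, 0.211 without PVR replicate 1, 0.0747 without PVR replicate 2 and 0.0910 with the replicate block (edgeR). Both belong to a list of 25 other survival factors, of which 23 were tested. In the same list CRYAB, named after its values were seen, a small heat shock protein that is abundant in the lens, had 5795 FPKM in normal replicate 2 and 72.3 and 166 FPKM in normal replicates 1 and 3.

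Of the FGF pathway, SDC4, a heparan sulphate proteoglycan that helps FGF2 to bind its receptor, rose from 27.4, 23.4 and 25.7 FPKM to 36.6, 36.2 and 35.8 FPKM. The groups did not overlap. Its fitted log2 fold change was 0.44 (standard error 0.07, adjusted p = 0.0415, edgeR), but the adjusted p was between 0.0534 and 0.243 with each sample left out in turn, 0.0949 with the replicate block in edgeR and 0.0603 with limma-voom. HS6ST1, a heparan sulphate sulphotransferase, had a log2 fold change of -0.30 (adjusted p = 0.358, edgeR). None of the 12 tested FGF ligands other than FGF2 passed an adjusted p of 0.05 in edgeR, while 3 passed an unadjusted p of 0.05, against 21.2% of all genes. FGF11 had a log2 fold change of -0.49 (adjusted p = 0.102, edgeR) and FGF9 one of 0.24 (adjusted p = 0.211, edgeR). Of the 22 adaptors and feedback regulators of FGF receptor signalling, 0 passed an adjusted p of 0.05 in edgeR, where 1.7% of all genes did, while 6 passed an unadjusted p of 0.05, where 21.2% of all genes did. The fitted values were higher for 11 of these genes and lower for 11, with GRB2 at 0.07 (adjusted p = 0.698, edgeR) and PTPN11 at -0.02 (adjusted p = 0.921, edgeR). The sign of PTPN11 turned with upper-quartile factors. The feedback phosphatases DUSP6 and DUSP4, named after their values were seen, were lower in each PVR sample than in each normal sample, with log2 fold changes of -0.43 (adjusted p = 0.0903, edgeR) and -0.58 (adjusted p = 0.134, edgeR). SPRY3, a feedback inhibitor also named after its values were seen, had one of 0.77 (adjusted p = 0.0634, edgeR). Among the 22 adaptors and feedback regulators, 5 had all PVR samples above all normal ones, where 13.4% of all genes did. All PVR samples were below for 3, where 14.6% of all genes were.

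IL6ST and LIFR, the receptor subunits that CNTF and LIF share, were far more abundant than the ligand LIF. For CNTFR the distance to LIF was smaller in PVR, with a mean of 6.82 FPKM against 2.28 FPKM for LIF. IL6ST, the shared signalling subunit gp130, had 31.9, 28.0 and 30.7 FPKM in normal replicates 1 to 3 and 42.4, 45.2 and 42.0 FPKM in PVR replicates 1 to 3. The groups did not overlap. Its log2 fold change was 0.45 (standard error 0.08, adjusted p = 0.0532, edgeR), which is just outside the threshold, and it was inside in 6 of the 16 other settings. LIFR had 27.3 ± 2.65 FPKM (SD, n = 3) in normal retina and 28.1 ± 1.03 FPKM (SD, n = 3) in PVR. On the log2 scale the fold change was -0.03, with a 95% interval from -0.27 to 0.20 and an adjusted p of 0.873 (edgeR). The ratio of IL6ST to LIFR in FPKM was therefore 1.11 ± 0.0960 (SD, n = 3) in normal retina and 1.54 ± 0.115 (SD, n = 3) in PVR. None of the 11 tested genes of this list passed an adjusted p of 0.05 in edgeR, while 2 passed an unadjusted p of 0.05, against 21.2% of all genes.

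The GDNF family was represented by 5 tested genes, of which none passed an adjusted p of 0.05 in edgeR and 1 passed an unadjusted p of 0.05, against 21.2% of all genes. RET, the receptor kinase that works with GFRA1, had 18.6 ± 5.08 FPKM (SD, n = 3) in normal retina and 22.4 ± 6.32 FPKM (SD, n = 3) in PVR. Its fold change on the log2 scale was 0.21 (adjusted p = 0.642, edgeR). NCAM1, an adhesion molecule that can also act as a GDNF receptor, had a log2 fold change of -0.21 (adjusted p = 0.281, edgeR).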

How the data were processed

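Polyadenylated RNA was sequenced from rabbit retina, with 3 samples per group. The authors used HISAT2 for alignment to the build OryCun2.0 and htseq-count for counting, and deposited raw counts and FPKM values per gene made from the same reads. Strand setting and annotation release are not given in the sources used here. Samples were grouped by their titles. Counts were analysed with edgeR 4.0.16 in R 4.3.3, using the default low-count filter (0.253 CPM in at least 3 samples), TMM factors and a quasi-likelihood model with condition as its term, adjusted by Benjamini-Hochberg over 18697 genes. The standard error is the log2 fold change divided by the square root of F. CPM carries the TMM factors. Shares of FPKM were compared with SciPy 1.17.1 by exact permutation. Alternatives were DESeq2 1.42.0, limma-voom (limma 3.58.1), RLE and upper-quartile factors, other filters, the replicate number as a block, leaving out each sample, and limma fitted to log2(FPKM + 1) or to log2(FPKM + 0.1). DESeq2 without normal replicate 2 was added after seeing the data. The tests were also run on simulated counts with known changes. These counts held no library that stands apart as normal replicate 2 did, so that case was not covered.

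The 10 genes and all lists were chosen with earlier results of these data known. Besides the 10 genes, the text names list genes with an adjusted p under 0.05, the 2 genes of highest mean FPKM where a list had fewer than 2 such genes, and the 5 genes most like the gene with the smallest p. Further genes (overlapping genes, pathway partners and those marked in the text) were named after their values were seen. Of the 137 pathway genes, 126 were matched by symbol. Samples of a group differed by more than counting noise (chi-square per degree of freedom 19.6 to 185). Same-numbered samples did not deviate together (correlations of -0.01, 0.07 and 0.04 across genes), so the replicate numbers were not used as pairs. The interval on summed counts reflects counting error alone, because the counts of each group were added up and the spread between samples was left out. Reads lacking molecular identifiers may be copies of the same molecule, which the interval does not cover either.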

Additional observations from a re-analysis of the deposited data

How the results depend on the processing

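Of the 10 genes, the number past both thresholds was 0 in edgeR, where 1.01% of all genes tested passed. It was 2 with DESeq2 (LIF and FGFR3), where 3.91% passed, and 1 with DESeq2 without normal replicate 2 (LIF). With a sample left out in edgeR it was 0 to 1. The numbers over all genes in these settings, given below, shifted as well. FGFR1, FGFR2, FGFR3, CNTFR, LIF, BDNF, NTRK2 and GFRA1 kept their direction in every setting that could be run, with FGFR1 between 0.0022 and 0.42 and GFRA1 between -0.21 and -0.0031. LIF has no value where at least 10 counts were required in every sample. The log2 fold change of FGF2 lay between -0.175 and 0.0104 with a sample left out, positive without normal replicate 2 only (0.00677 with DESeq2), and that of CNTF between -0.0504 and 0.353, negative without normal replicate 3 only. Among pathway genes near 0, PTPN11 turned to 0.0134 with upper-quartile factors, 0.0533 with limma on log2(FPKM + 1) and 0.0547 with log2(FPKM + 0.1), and lay between -0.0416 and 0.0213 with a sample left out. LIFR turned to 0.0402 and 0.0416 with the same settings of limma and lay between -0.0964 and 0.0499 with a sample left out, and RET lay between -0.00825 and 0.447. The FGF2 share of the ligand sum turned from 0.16 to -1.52 percentage points without the 4 intracellular FGFs, and lay between -0.29 and 0.53 with a sample left out. The FGFR1 share kept its direction, with differences of 9.49 to 26.9 percentage points with a sample left out.

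The 2 pathway genes past both thresholds became 4 with DESeq2, 5 with DESeq2 without normal replicate 2, 1 with the replicate block, and 0 to 2 with a sample left out. Over all genes, 188 became 731 with DESeq2, 631 with DESeq2 without normal replicate 2, 87 with limma on log2(FPKM + 1) and 82 with the replicate block, and 22 to 436 with a sample left out, with the lowest number without PVR replicate 1 and the highest without PVR replicate 3. With limma on log2(FPKM + 1) low genes have smaller fold changes by construction. The cause of the other shifts was not tested. With the replicate block, 0 of the 10 genes passed. The exact paired test of the FGFR1 share gave p = 0.25, the smallest possible with 3 pairs, and that of the FGF2 share gave p = 0.75. The counts of LIF were low, at 0 to 65 per sample. Its coefficient of variation was 92.9% in normal retina and 54.1% in PVR, where counting error alone gives 54.8% and 14.6%.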
